A study of Rattus norvegicus with 12 samples.

Results

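The Dlk1-Dio3 locus of the rat lies on chromosome 6 and holds one of the largest groups of imprinted miRNAs in rodents. Its members were chosen by name from the nCounter table, as the probes whose miR number (the digits after rno-miR-, with any letter or arm) is on a list of miRNAs of this locus. The rule found 48 of the 420 rat miRNA probes, or of 429 probes in all, and used no measured value. The number of miR-889, which is also on the list, matched 0 probes. Plasma from 12 female Wistar rats was measured, 1 sample per rat. The control group was 6 rats that were not pregnant and were 110 to 269 days old. The pregnant group was 6 rats at gestational age E14.5, 103 to 373 days old, in which mating was timed by vaginal smears. Blood was taken after death, and the plasma was centrifuged repeatedly to remove cells and platelets before RNA extraction. The 12 samples filled 1 nCounter cartridge, in which every imaged barcode adds 1 count to its probe. The comparison asks which of these miRNAs differ in maternal plasma in mid gestation.

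At this locus the protein-coding genes Dlk1, Rtl1 and Dio3 are expressed from the paternal chromosome. The non-coding RNAs Meg3, Rian and Mirg, a transcript antisense to Rtl1, and the miRNAs cut from them are expressed from the maternal chromosome. The miRNAs are known from the placenta, the embryo, the brain and developing muscle, and those antisense to Rtl1 pair perfectly with its mRNA and lead to its cleavage. Rtl1 itself is needed for the fetal capillaries of the placenta. In RefSeq annotation of the rat build GRCr8, the hairpins of 43 of the probes matched by symbol. They are 40 hairpins, all on the plus strand, at chr6:134298084-134579838, a stretch of 281.8 kb between Dlk1 (chr6:134192491-134199779) and Dio3 (chr6:135107072-135108933). The hairpins of miR-376b, miR-485, miR-540 and miR-665 are the remaining ones. By position and host transcript, 6 probes belong to the Meg3 side, 5 to the Rtl1 antisense transcript, 2 to Rian and 35 to Mirg. The 5 hairpins antisense to Rtl1 lie within 5.0 kb (chr6:134326449-134331416), inside the annotated span of Rtl1 (chr6:134325231-134335780), and the matched Mirg hairpins within 36.4 kb (chr6:134543445-134579838).

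For 11 of the 48 probes the name matched a single mature miRNA in RefSeq. Below are those that the results return to, shown 5′ to 3′ with the seed, bases 2 to 8, in capitals. The seed is the stretch with which a miRNA finds its targets.
rno-miR-431: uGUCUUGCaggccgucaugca
rno-miR-668: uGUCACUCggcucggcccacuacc
rno-miR-376b-5p: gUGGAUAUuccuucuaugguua
rno-miR-376b-3p: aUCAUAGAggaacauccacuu
rno-miR-369-5p: aGAUCGACcguguuauauucgc
rno-miR-369-3p: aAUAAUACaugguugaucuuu
rno-miR-300-3p: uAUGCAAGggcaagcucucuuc
rno-miR-495: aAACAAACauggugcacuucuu
The first of these, miR-431, lies at chr6:134326468-134326488 in the Rtl1 antisense group and is shown because it was the member most often called by the workflows. The mature miR-668 lies at chr6:134570949-134570972, and miR-495 at chr6:134554103-134554124. The pairs of miR-376b (5p at chr6:134558876-134558897, 3p at chr6:134558913-134558933) and of miR-369 (5p at chr6:134579472-134579493, 3p at chr6:134579507-134579527) are opposite arms of the same hairpin with different seeds, and each arm has its own probe. The seed of miR-376b-5p is shared with miR-376c-5p, from which it differs at 1 of 21 compared bases. The miR-300-3p sequence (chr6:134559968-134559989) differs from miR-381-3p at 1 of 18 compared bases. Counts of such near-identical members could be split between their probes. The names of the miR-376c and miR-381 probes give no arm, so it is not known here whether they target these arms. If they do, the values of miR-376b-5p, miR-376c, miR-300-3p and miR-381 are uncertain to that extent.

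The rat miRNA probes summed to between 6969 and 10176 counts in the control rats and to between 5163 and 30301 in the pregnant rats. Pregnant replicates 5 and 6, with 24010 and 30301 counts, stood apart from the other 10 rats, which had 9065 ± 2136 (SD, n = 10). Negative control probes were not used here. In their place stand 4 exogenous probes for which no RNA had been added, the plant probes ath-miR159a and osa-miR442 and the worm probes cel-miR-254 and cel-miR-248, a choice made with these counts known. Their mean count in a rat lay between 7.25 and 15.75, and their mean + 2 SD between 17.9 and 49.1. Efficiency differs between probes, so counts of different probes are compared only with this background. With single counts of 1 to 71 per member and rat, counting error alone is large.

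The miRNAs of the locus gave low counts in plasma. Over the 12 rats the mean raw count of a member ran from 1.5 for miR-673 to 48 for miR-539, with a median of 6.17. The other 372 rat miRNA probes had a median of 8.38 and reached 1803. Of the 48 members, 5 had a mean above the 19.5 counts of ath-miR159a, the highest of the 4 background probes. These were miR-539, miR-543, miR-376b-5p, miR-377 and miR-496, all from Mirg, and they make up 10.4% of the members against 23.4% of the other rat miRNA probes. Another 34 members lay between the highest and the lowest background probe, and 9 lay below the lowest, cel-miR-248 with 3.58 counts. A count of 1, the smallest in the table, was found in at least 1 rat for 18 members, and 16 members did not reach 10 counts in any rat.

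**Figure D1:**
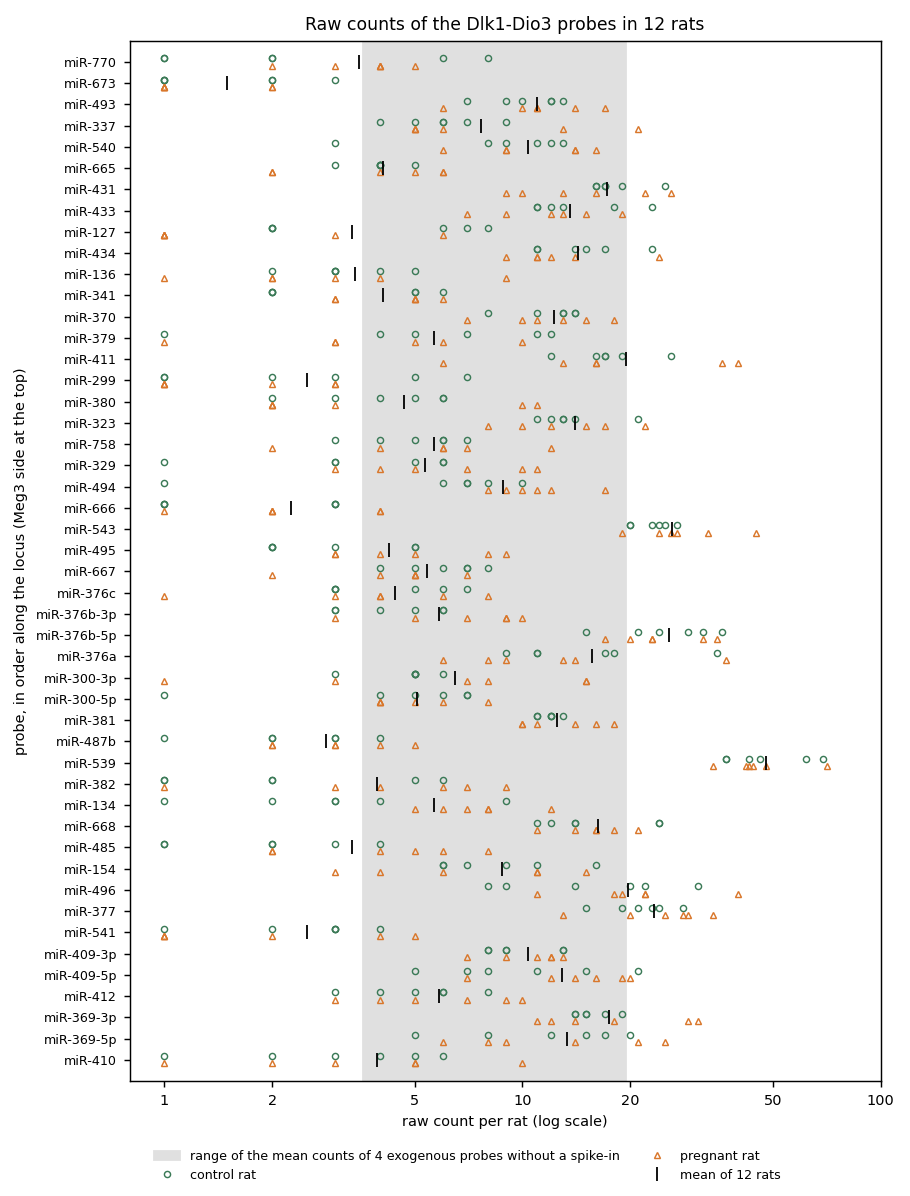
Raw counts (log scale) of the 48 probes, from the Meg3 side at the top to miR-410 at the bottom, in 6 control rats (circles) and 6 pregnant rats (triangles), with the mean of 12 rats as a tick. The grey band spans the mean counts of the 4 background probes, from 3.58 to 19.5, and holds the mean of 34 members, while miR-539 lies to the right of it in every rat.

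Above the mean + 2 SD of the background probes of the same rat were 0 members in all 12 rats, 3 members in at least 6 rats and 9 members in at least 1 rat. Over all 420 probes the shares were 4.76% in all rats, 13.8% in at least 6 and 31.0% in at least 1. The corresponding shares of the members were 0%, 6.25% and 18.8%. The best detected was miR-539, above this level in 11 rats, followed by miR-543 in 7 rats and miR-376b-5p in 6. The miR-377 probe passed in 3 rats, and miR-496, miR-411 and miR-376a in 2 each. The remaining 39 members stayed below it in all 12 rats, among them all members of the Meg3 side, the Rtl1 antisense group and Rian. With the mean of the background probes as the level, 5 members were above it in all rats, 19 in at least 6 and 29 in at least 1, against 19%, 42.1% and 65.7% of all probes. With mean + 1 SD it was 1, 5 and 19 members, against 9.05%, 22.1% and 45.2% of all probes.

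The member with the highest mean count, miR-539, had 37 to 69 counts in the control rats (median 44.5) and 34 to 71 in the pregnant rats (median 43.5). The groups overlapped over nearly their whole range. Its log2 fold change, pregnant over control, was -0.13 (SE 0.22) and its adjusted p by edgeR's quasi-likelihood test with Benjamini-Hochberg adjustment was 0.944. For miR-543 the counts were 20 to 27 in the control rats (median 23.5) and 19 to 45 in the pregnant rats (median 26.5). The highest value, 45, came from pregnant replicate 1, and the other pregnant rats had 19 to 33. The log2 fold change of miR-543 was 0.26 (SE 0.24, edgeR adjusted p = 0.797), and 0.02 without pregnant replicate 1. The arms of miR-376b, whose sequences are given above, differed in raw count, with 25.6 ± 7.04 for miR-376b-5p and 5.83 ± 2.48 for miR-376b-3p (SD, n = 12), and the 5p probe was the higher of the pair in 12 of 12 rats. For miR-369 the 3p probe was higher in 10 of 12 rats (17.4 ± 6.32 against 13.3 ± 6.44). Efficiency of the probes may differ, so these are differences between probes, not between amounts of the arms.

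All 48 members together gave 379 to 547 counts in the control rats (463 ± 72.2, SD, n = 6) and 363 to 674 in the pregnant rats (505 ± 116, SD, n = 6). The highest sums, 674 and 613, were those of pregnant replicates 5 and 6. The other pregnant rats lay within or just below the range of the controls. As a share of all rat miRNA counts the members held 5.22% ± 0.915 in the control rats and 4.38% ± 2.52 in the pregnant rats. The share ran from 4.29% to 6.76% in control and from 2.02% to 8.93% in pregnant rats, highest in pregnant replicate 2, which had the fewest counts in all (5163), and lowest in pregnant replicates 5 and 6. Without these last 2 rats the pregnant share was 5.37% ± 2.57. With the mean of the background probes subtracted in each rat, the order of the means turned, to 2.27% ± 0.676 in control and 2.33% ± 2.16 in pregnant rats. In the 2 deepest rats all rat miRNAs together were 3.0 times those of the other 10 rats, the summed member count was 1.42 times and the mean of the background probes was 1.11 times. A higher mean in the 2 deepest rats was found for 36 members and a lower one for 12, with a median ratio of 1.36. The ratio of 3.0 was reached by miR-300-3p alone, with 15.0 counts in the deepest rats and 4.8 in the others.

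**Figure D2:**
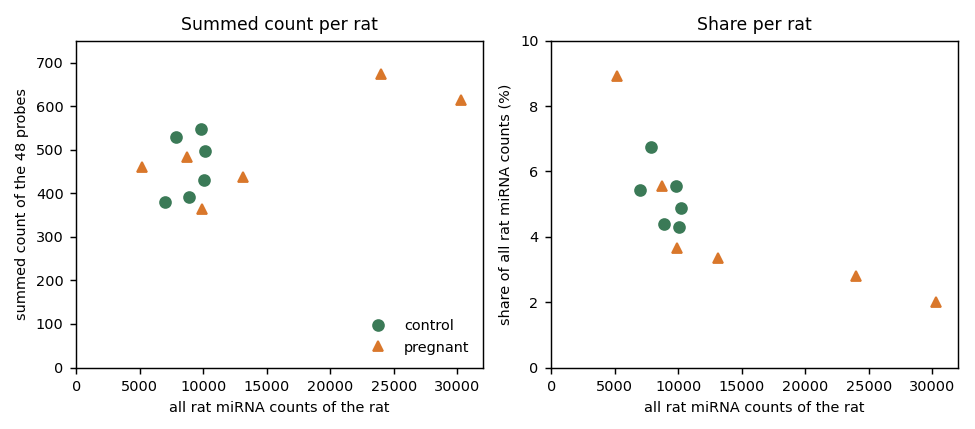
Summed raw count of the 48 probes (left) and their share of all rat miRNA counts in percent (right) against all rat miRNA counts of the same rat, for 6 control rats (circles) and 6 pregnant rats (triangles), 1 point per rat. Totals ran from 5163 to 30301 while the summed counts stayed between 363 and 674, and the share fell from 8.93% in the shallowest rat to 2.02% in the deepest.

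Markers of other sources varied widely between rats. The red cell miRNAs miR-144 and miR-451 summed to 149 to 737 counts in the control rats and to 55 to 2672 in the pregnant rats, and the liver miRNA miR-122 gave 115 to 2632 and 67 to 5714. The platelet and endothelial pair miR-126 and miR-223 gave 64 to 167 and 25 to 841, and 6 muscle probes gave 117 to 187 and 93 to 331. The nervous system probes miR-9, miR-124 and miR-128 gave 11 to 21 counts in control and 7 to 18 in pregnant rats, and all 3 stayed below mean + 2 SD of the background in every rat. Their part in the values of the locus was not tested. In plasma, fewer cells that release a miRNA and less RNA per cell cannot be told apart.

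No miRNA of the locus passed the adjusted test between pregnant and control rats. A filter of 10 counts or more in no fewer than 6 rats was met by 20 of the 48 members (41.7%) and by 187 of the 420 probes (44.5%). Of the 187, the quasi-likelihood test of edgeR after TMM normalisation called 0 at an adjusted p of 0.05 (0.0% called), and of the 20 members 0. The smallest adjusted p of a member was 0.732, that of miR-431 and miR-433. Without adjustment 11 of the 187 probes passed (5.88%) and 0 of the 20 members. DESeq2 and limma-voom also gave 0 members with and without adjustment. The fold change was positive for 10 of the 20 members and negative for 10, with a median of -0.01 on the log2 scale, beside 104 positive of 187 (55.6%) and a median of 0.05 over all tested probes. Its size ran from 0.013 to 0.367, with standard errors of 0.158 to 0.344.

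In the fit on all 420 probes, used for the 28 members outside the filter, 0 probes passed with adjustment and 20 without (4.76%). Of the 48 members 0 passed with adjustment and 2, miR-134 and miR-485, without (4.17%), and the smallest adjusted p of a member was 0.835. The members passing without adjustment changed with the scaling. They were miR-134 and miR-485 on raw counts too, miR-127 and miR-134 with the size factors of DESeq2, and miR-127 and miR-299 with the total RNA normalisers. With TMM both were higher in pregnant rats, as were 4.29% of all probes, and 0 members were lower, beside 0.476% of all probes. The fold change was positive for 29 members and negative for 19, with a median of 0.08, beside 56.7% positive and a median of 0.06 over all probes. By an exact permutation test of log2 CPM over the 924 assignments of the rats, two-sided, 5 members passed 0.05 without adjustment (miR-134, miR-494, miR-376b-3p, miR-495 and miR-485), which is 10.4% against 4.05% of all probes. The adjusted p of these was 0.987. All 5 belong to Mirg, which holds 35 of the 48 members, and were higher in pregnant rats. Of the 20 probes that passed edgeR without adjustment, 18 were also higher in pregnant rats. On raw counts the exact test gave 2 members without adjustment, miR-494 (0.0195) and miR-134 (0.0346), which is 4.17% against 1.9% of all probes. In raw counts and in CPM, the groups were separate for 0 of the 48 members and 0 of all 420 probes (0.0%). The SD of the raw counts was larger among pregnant than among control rats for 34 members and smaller for 14. This was not counted over all probes, and the total counts also spread more among pregnant rats (SD 9806 against 1315). The larger spread is therefore not read as a trait of the members.

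**Figure D3:**
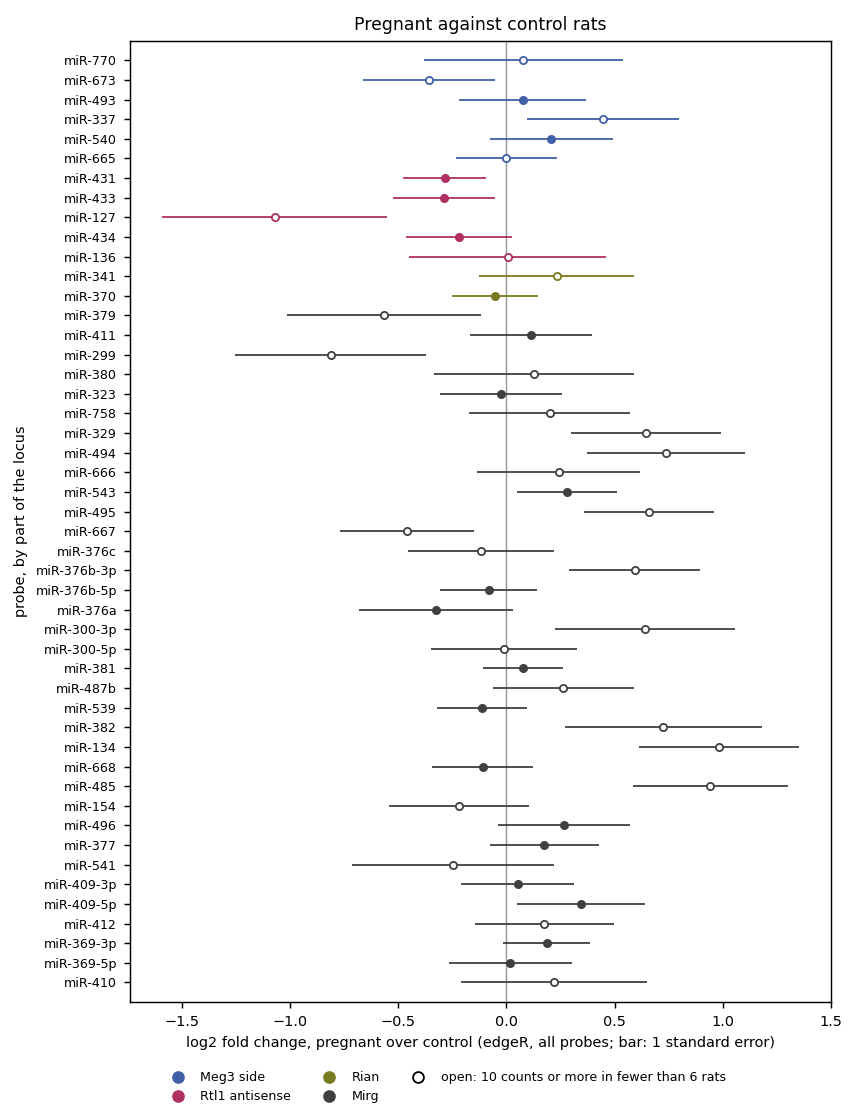
Log2 fold change, pregnant over control rats, of the 48 probes from edgeR fitted on all 420 probes, with a bar of 1 standard error, ordered along the locus and coloured by its parts (6 rats per group). Filled points passed the filter of 10 counts in 6 rats. The points scatter on both sides of 0, with 4 of the 5 Rtl1 antisense probes below 0 and 23 of the 35 Mirg probes above it.

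On the Meg3 side, the mean counts ran from 1.5 (miR-673) to 11 (miR-493), and 2 of the 6 probes, miR-493 and miR-540, passed the filter. The member with the lowest mean count, miR-673, had 1 to 3 counts in control and 1 to 2 in pregnant rats. The summed count was 35.0 ± 6.57 in control and 41.2 ± 8.49 in pregnant rats (SD, n = 6 each). In the fit on all probes 4 were positive and 2 negative, with a median log2 fold change of 0.08, and 0 passed without adjustment. The largest difference was that of miR-337, which had 4 to 9 counts in the control rats and 5 to 21 in the pregnant rats. The values of 13 and 21 came from pregnant replicates 5 and 6, the deepest lanes, and the other 4 pregnant rats had 5 or 6. The log2 fold change came to 0.45 (SE 0.35).

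Of the 4 parts of the locus, the Rtl1 antisense group had the highest share of negative differences, and none of its probes passed a test with adjustment. In the fit on all probes 4 of 5 were negative, with a median of -0.29, beside 182 of all 420 probes, and 3 of the 3 that met the filter were negative in the filtered fit. The summed count was 56.0 ± 9.23 in control and 47.7 ± 11.7 in pregnant rats (SD, n = 6 each), so the ranges of 44 to 68 and 38 to 64 overlapped. All 5 were below mean + 2 SD of the background in every rat.

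The miR-431 probe had 16 to 25 counts in the control rats (median 17) and 16, 10, 13, 9, 22 and 26 in pregnant replicates 1 to 6. Control replicate 3 gave the 25, and pregnant replicates 5 and 6, with 22 and 26 counts, were above most controls, while the other 4 pregnant rats lay at or below the lowest control. After TMM scaling the means were 1987 ± 302.5 CPM in control and 1559 ± 284 CPM in pregnant rats (SD, n = 6 each), and 0 of 6 pregnant rats were above the control mean. Its log2 fold change was -0.33 (SE 0.18), with an unadjusted p of 0.118 and an adjusted p of 0.732 by edgeR's quasi-likelihood test. The exact permutation test of log2 CPM, two-sided, gave 0.0325 without and 1.0 with adjustment over 187 probes, and 3.21% of these probes passed without adjustment. With CPM scaled on all 420 probes the same test gave 0.0649 without adjustment, and 1 of 6 pregnant rats was above the control mean. On the raw counts its exact p was 0.489, with 2 of 6 pregnant rats above the control mean.

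For miR-433 the counts were 11 to 23 in control and 7 to 19 in pregnant rats, with a median of 12.5 in both groups. The log2 fold change was -0.33 (SE 0.22, edgeR adjusted p = 0.732). The neighbouring miR-434 had 23, 11, 14, 17, 11 and 15 counts in control replicates 1 to 6 and 9 to 24 in pregnant rats (median 11.5), a log2 fold change of -0.26 (SE 0.24, edgeR adjusted p = 0.797). Both groups overlapped for each of these probes.

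The miR-127 probe gave very few counts. There were 2 to 8 in the control rats (median 4.0) and 1 to 6 in the pregnant rats (median 1.0), and 4 of the 6 pregnant rats were at the lowest count of the table. It had the largest negative difference of all members, -1.07 (SE 0.52), with an unadjusted p of 0.0564 and an adjusted p of 0.835 by edgeR on all probes. The unadjusted edgeR p was 0.0436 with the size factors of DESeq2, 0.0116 with the total RNA normalisers and 0.00319 with library size only, with adjusted p-values of 0.868, 0.999 and 0.449. Without pregnant replicate 4, the pregnant rat with 6 counts, the value was -1.73 with an unadjusted p of 0.0022 and an adjusted p of 0.463, and without pregnant replicate 5 it was -0.84 with an unadjusted p of 0.142. The fifth probe of the group, miR-136, had 2 to 5 counts in control and 1 to 9 in pregnant rats and a log2 fold change of 0.01 (SE 0.45).

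**Figure D4:**
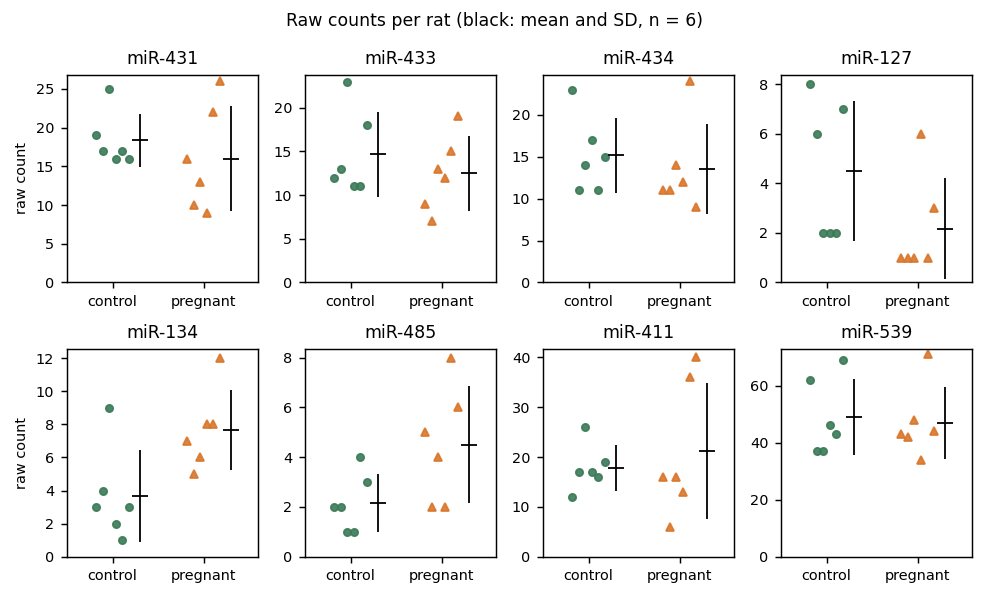
Raw counts per rat of 8 probes in 6 control rats (circles) and 6 pregnant rats (triangles), with the mean and SD of each group in black. Each panel has its own axis, which starts at 0. The groups overlap in all 8 panels, including miR-431 (16 to 25 against 9 to 26 counts) and miR-134 (1 to 9 against 5 to 12).

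Rian is represented by miR-341 and miR-370. The miR-370 probe had 8 to 14 counts in control rats (median 13) and 7 to 18 in pregnant rats (median 12), with a log2 fold change of -0.09 (SE 0.17, edgeR adjusted p = 0.967). The miR-341 probe had 2 to 6 counts in control and 3 to 6 in pregnant rats, with 0.23 (SE 0.36) on all probes. In neither did the difference exceed its standard error.

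Mirg held the best detected members and all 9 that passed mean + 2 SD of the background in any rat. Its 35 probes summed to 356 ± 57.8 counts in control and 399.5 ± 94.2 in pregnant rats (SD, n = 6 each). In the fit on all probes 23 were positive and 12 negative, with a median log2 fold change of 0.17 beside 0.06 over all probes. Of these 35, 2 passed without adjustment and 0 with it.

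The largest positive difference was that of miR-134, a miRNA of neurons that acts on the growth of dendritic spines. It gave 1 to 9 counts in control rats (median 3) and 5 to 12 in pregnant rats (median 7.5). Only control replicate 3, with 9 counts, was above the lowest pregnant rat. All 6 pregnant rats were above the control mean of 3.67 ± 2.81 counts (SD, n = 6), with a mean of 7.67 ± 2.42. Its log2 fold change was 0.98 (SE 0.37), with an unadjusted p of 0.0171 and an adjusted p of 0.835 by edgeR on all probes. With the total RNA normalisers the value was 0.79 and with library size only 0.49. Without adjustment it did not pass under either of these scalings. The exact permutation p of its log2 CPM was 0.013 without and 0.987 with adjustment. Every one of its counts was below mean + 2 SD of the background of the rat, and 2 of the 12 were above the mean.

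The miR-485 probe had 1 to 4 counts in control rats (median 2) and 2 to 8 in pregnant rats (median 4.5). The 8 and 6 came from pregnant replicates 5 and 6. With a log2 fold change of 0.94 (SE 0.36), it had an unadjusted p of 0.0366 and an adjusted p of 0.835 by edgeR, and without the 2 deepest rats the value was 0.71 with an unadjusted p of 0.194. Its unadjusted edgeR p was 0.0508 with the size factors of DESeq2, 0.143 with the total RNA normalisers and 0.545 with library size only. For miR-494 there were 1 to 10 counts in control rats (median 7) and 8 to 17 in pregnant rats (median 10.5), and 6 of 6 pregnant rats were above the control mean. It differed by 0.74 in log2 (SE 0.37, unadjusted p = 0.0592 by edgeR). For miR-495, whose sequence is given above, the counts were 2 to 5 and 3 to 9, with 0.66 (SE 0.30).

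Among the better measured Mirg probes the differences were smaller. The miR-411 probe had 12 to 26 counts in control rats (median 17) and 6 to 40 in pregnant rats (median 16), where the 36 and 40 of pregnant replicates 5 and 6 were the highest and the 6 of pregnant replicate 2 the lowest of all. The difference in log2 was 0.06 (SE 0.26), and -0.33 without the 2 deepest rats. The miR-496 probe had 8 to 31 counts in control rats (median 17) and 11 to 40 in pregnant rats (median 20.5), with 0.23 (SE 0.30). For miR-377 the counts were 15 to 28 (median 22) and 13 to 34 (median 26.5), with 0.16 (SE 0.27), and for miR-376b-5p 15 to 36 (median 26.5) and 17 to 35 (median 23), with -0.10 (SE 0.25). These 4 probes had adjusted p-values by edgeR of 0.907 to 0.967.

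The miR-376a probe had the largest standard error of the 20 that met the filter. It gave 9 to 35 counts in control rats (median 14) and 6 to 37 in pregnant rats (median 11). The 35 was from control replicate 6 and the 37 from pregnant replicate 5, while no other rat exceeded 18. Its log2 fold change of -0.37 had a standard error of 0.34 (edgeR adjusted p = 0.797), and it was -0.05 without control replicate 6 and -0.74 without pregnant replicate 5. The miR-409-5p probe had the largest positive fold change of these 20, with 5 to 21 counts in control rats (median 9.5), 7 to 20 in pregnant rats (median 15) and a value of 0.31 (SE 0.31, edgeR adjusted p = 0.832). This value ran from 0.11 without pregnant replicate 2 to 0.55 without control replicate 3, and was 0.01 with library size only. For miR-369-3p the value was 0.14 (SE 0.19), for miR-668 -0.14 (SE 0.23) and for miR-381 0.04 (SE 0.16). The counts of miR-381 were 11 to 13 in control and 10 to 18 in pregnant rats. At the lower end, miR-541 had 1 to 5 counts and miR-666 had 1 to 4 over the 12 rats.

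Within groups the variance of the raw counts divided by their mean, which is 1 for pure counting error, had a median of 1.38 over the 48 members and ran from 0.311 to 7.11. It was at or below 1 for 14 members and above 2 for 13. The other probes with a mean no higher than that of miR-539 also had a median of 1.38.

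A change of scaling multiplies all probes of a rat by the same factor. The medians of the members and of all probes therefore move together by construction, and the number of positive members changes with them. Single members shift by unlike amounts. From TMM to library size alone, miR-377 went from 0.175 to -0.116 and miR-300-3p from 0.642 to -0.053. In the fit on all 420 probes, the median log2 fold change of the members was 0.08 with TMM, 0.02 with the size factors of DESeq2 (RLE), -0.06 with the total RNA normalisers, 0.14 on raw counts and -0.36 with library size alone. The medians over all probes were 0.06, 0.00, -0.10, 0.13 and -0.42. Relative to them, the median of the members stayed within 0.06. The number of positive members was 29, 26, 20, 32 and 7 in the same order, beside 56.7%, 50.5%, 40.5%, 63.8% and 14.3% of all probes. With library size alone 7 members passed without adjustment (8.57% of all probes did), all negative, among them miR-127, miR-431 and miR-433. Under each of the 5 scalings 0 members passed with adjustment. The Rtl1 antisense probes were negative for 4 of 5 with TMM and on raw counts, and for 5 of 5 with the other scalings. The probe that changed sign, miR-136, moved with the shift of all probes. It had 0.006 with TMM and -0.408 with library size alone, where the median over all probes was -0.42.

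**Figure D5:**
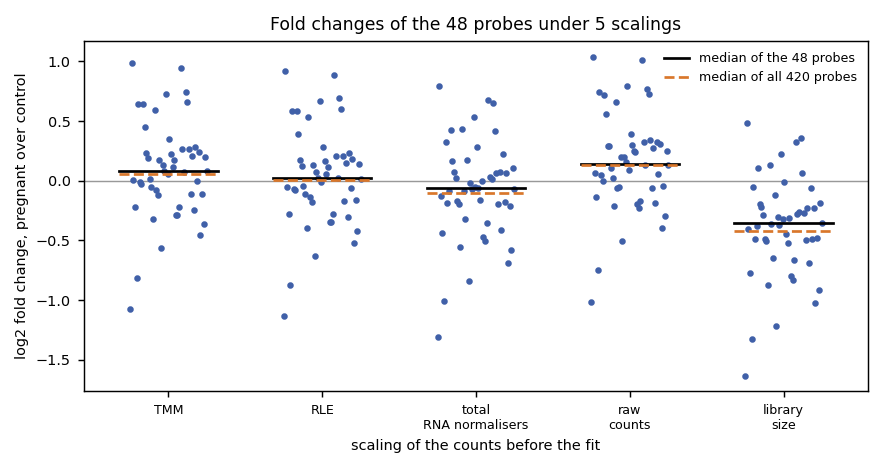
Log2 fold changes, pregnant over control, of the 48 probes (points) in edgeR fits on all 420 probes under 5 scalings of the counts, with the median of the 48 (black line) and of all 420 probes (dashed line). By construction both medians move together, from 0.14 and 0.13 on raw counts to -0.36 and -0.42 with library size alone.

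The study processed its counts in 14 workflows, which combine no background correction, subtraction or thresholding at mean, mean + 1 SD or mean + 2 SD with total RNA or NormFinder normalisers. These were rebuilt with the background from the 4 exogenous probes. The normalisers were chosen again from these counts, and the 5 NormFinder normalisers (the most stable of them miR-450a) are not those of the study, so the calls made with them are calls of the rebuilt workflows. The study reported miR-450a as higher in pregnancy by RT-qPCR, under the less strict of its tests only. The part of this normaliser in the calls below was not tested. By the methods' t-test without adjustment, 4 of the 48 members were called in at least 1 workflow (8.33%), beside 39 of all 420 probes (9.29%). They account for 7 of 63 calls. With Benjamini-Hochberg adjustment within each workflow 0 members were called. The exact permutation test, two-sided, called 5 members (10.4%) beside 12.9% of all probes, the additional one being miR-667.

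The miR-431 probe was called in 3 workflows. The study also called it lower in pregnancy by nCounter, in a partly different set of workflows. The study's own recalculation reproduced its miR-431 calls except those made by thresholding with NormFinder normalisers. The study's RT-qPCR of the same rats gave the opposite direction for miR-431, higher in pregnancy. Without background correction and with NormFinder normalisers it had 19.75 ± 3.12 in control and 14.4 ± 3.18 in pregnant rats (SD, n = 6 each, normalised counts, exact permutation p = 0.013). Thresholding at the mean with these normalisers gave the same values, since no rat was at the threshold. With subtraction of the mean and total RNA normalisers it had 7.92 ± 2.41 and 4.83 ± 1.87 (exact permutation p = 0.0325). The miR-134 probe was called in the 2 workflows without background correction, in which it was higher in pregnant rats (3.83 ± 2.74 and 7.15 ± 1.48 with NormFinder normalisers, SD, n = 6 each, exact permutation p = 0.0303). In the other 12 workflows most of its values were at the floor or the threshold, so that its direction there is not read.

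The calls of miR-370 and miR-381 came from 1 workflow each. After subtraction of mean + 1 SD with NormFinder normalisers, miR-370 had 1.21 ± 0.184 in control and 0.938 ± 0.186 in pregnant rats (SD, n = 6 each). These values are close to the floor of 1, since its count exceeded mean + 1 SD of the background in 1 of 12 rats. They are therefore mostly the factors of the rats, and their direction is not read. After thresholding at the mean with NormFinder normalisers, miR-381 had 14.0 ± 1.45 in control and 12.3 ± 1.02 in pregnant rats (SD, n = 6 each, exact permutation p = 0.0433). Its raw mean was higher in pregnant rats (13.2 against 11.8), and its raw count exceeded the background mean in 9 of 12 rats. Without background correction the same normalisers did not call it, so the call depends on the thresholding. Subtracted values under 1 are set to 1 and then multiplied by the factor of the rat, so that members at the floor share 1 value in each rat. At the floor in all 12 rats were 22 members after subtraction of the mean, 32 after mean + 1 SD and 40 after mean + 2 SD. Of the normalisers themselves, miR-539 was 1 of the 38 total RNA normalisers, and 0 of the 5 NormFinder normalisers were members.

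A list of imprinted miRNAs from other loci holds 8 probes, for miR-296 and miR-298 of the Gnas locus, miR-335 of Mest, miR-466b, miR-466c and miR-466d of the rodent Sfmbt2 cluster, miR-483 of Igf2 and miR-675 of H19. In the fit on all probes 0 of the 8 passed with or without adjustment, and 4 were positive and 4 negative, with a median log2 fold change of -0.01. The Sfmbt2 cluster is placental in rodents, and miR-466b and miR-466d, with 55 and 72.4 counts on average, were above mean + 2 SD of the background in 11 and 12 rats. The miR-466b probe had 51.3 ± 6.15 counts in control and 58.7 ± 9.85 in pregnant rats, and miR-466d had 73.8 ± 12.7 and 71.0 ± 7.403 (SD, n = 6 each). The miR-483 probe was above this level in 4 rats, with 19.7 ± 3.83 and 24.5 ± 8.69 counts. The remaining 5 stayed below it in every rat, and miR-466c had a count of 1 in all of them.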

How the data were processed

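The counts deposited by the authors are raw nCounter counts (rat miRNA codeset v1.5), with no correction for background and no normalisation. The table analysed holds 420 rat miRNA, 5 exogenous and 4 housekeeping mRNA probes in 12 rats, and 0 sample columns were left unused. Counts of negative and positive control probes were not used here, so the background of each rat was set by the mean and SD of 4 exogenous probes that had received no spike-in, and the positive control factor was left at 1. Groups and replicate numbers came from the sample labels. The members, lists, background and tests were chosen with earlier results of these data known. P-values set a difference between the groups against the variation between these 12 rats.

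Counts were modelled with glmQLFit and glmQLFTest of edgeR 4.0.16 (R 4.3.3) after TMM normalisation, over all rat miRNA probes that reached 10 counts in 6 or more rats, with Benjamini-Hochberg adjustment over all of them. Members outside this filter were taken from the same fit on all 420 probes. The SE of a fold change came from its size and the F statistic. CPM values are TMM scaled, and their log2 was taken after adding 1. DESeq2 1.42.0 and limma 3.58.1 (voom) were alternatives, and the exact test permuted the rats over all 924 assignments, with a smallest possible p of 0.00216. NormFinder and the 14 workflows were rebuilt in Python 3.11.15 (numpy 2.4.6, pandas 2.3.3, scipy 1.17.1), and the scripts were tested on simulated data. When a rat was left out, the normalisers were chosen again.

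Named members were those with the 10 highest and 3 lowest mean counts, those with an unadjusted edgeR p under 0.05, the 3 largest fold changes in each direction among those in the filter, those called in a workflow, and miR-431, miR-127, miR-134 and miR-411, which the study lists. Other members named in the text were chosen after their values were seen. Alternatives covered the scaling, filter, tool, background, replicate number, age class (over 200 days) and each rat left out. Leaving out the 2 rats with over 20000 counts, and no scaling, were added after the data had been seen. Correlations between rats ran from 0.668 to 0.940 and 0 pairs were identical. Sequences and coordinates are from RefSeq (GRCr8).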

Additional observations from a re-analysis of the deposited data

Results flagged for a closer look

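In 3 of 44 sets of 6 rats (the named members, the summed count and the share, in each group), 1 rat lay far from the nearest other relative to the range of its group. Chance gives about 1 such rat in 20 sets. For miR-431, control replicate 3 had 25 counts and the next control rat had 19. For miR-376a, control replicate 6 had 35 counts beside 18 in the next, and pregnant replicate 5 had 37 beside 14. Without pregnant replicate 5, miR-376a had a log2 fold change of -0.74, with an unadjusted p of 0.0492 and an adjusted p of 0.791 by edgeR, and without control replicate 6 it was -0.05 with an unadjusted p of 0.877. The cause was not tested.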

How the results depend on the processing

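The count of 0 members with adjustment was obtained under every alternative of the count model and with each rat left out. Without adjustment it was 2 of 20 with library size only (6.95% of all tested probes) and 2 of 48 with no filter (4.76%). The exact permutation test gave 1 of 20, miR-431 (3.21%). With a rat left out it was 0 to 1, beside 3.78% to 10.38% of all tested probes. The 1 was miR-376a without pregnant replicate 5 (4.4%) and miR-431 without pregnant replicate 6 (3.85%). The median log2 fold change of the tested members became -0.37 with library size only (1 of 20 positive, all probes -0.33) and ran from -0.14 (without pregnant replicate 2) to 0.03 with a rat left out. The labels do not state that replicate numbers pair the rats, and same-numbered rats can differ in age (replicate 2, 269 days in control and 103 in pregnant). The deviations of same-numbered rats correlated between -0.312 and 0.251, with 2 of 6 over 0.1 and 1 of 6 controls closest to its own number. With counts this low, such correlations cannot decide whether rats were paired. With the replicate number as a block, 0 of 20 members passed with or without adjustment, and 1.6% of all probes without it. Members above background in all rats, at least 6 rats and at least 1 rat were 1, 5 and 19 at mean + 1 SD, and 5, 19 and 29 at the mean. With all exogenous probes as the background 1 member passed in at least 6 rats, and with housekeeping mRNA probes 22 in at least 1 rat. With a rat left out, 0 to 1 members passed in all rats (1 without control replicate 3). After background subtraction the share of the members was 2.27% in control and 2.33% in pregnant rats, which turned the order of the means. Members called in a workflow were 0 with Benjamini-Hochberg adjustment, 2 with housekeeping mRNA probes as the background (5.48% of all probes), 30 when these were added to the exogenous probes (59.0%) and 42 with all exogenous probes (74.8%). With a rat left out the number ran from 2 (control replicate 6 or pregnant replicate 6) to 40 (pregnant replicate 2, 79.0% of all probes), with 34 without control replicate 1 (62.9%). Members at the floor share the factor of a rat, so that they pass together.

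Of 459 values of single members under alternatives, 431 kept their sign and 28 did not, and for 8 of the 20 named members none changed sign, miR-431, miR-127, miR-134 and miR-485 among them. With library size only, which moved the median over all 420 probes to -0.42, the log2 fold change was -0.05 for miR-543, -0.09 for miR-377, -0.29 for miR-496, -0.56 for miR-411, -0.28 for miR-369-3p, -0.37 for miR-381 and -0.23 for miR-666. With the total RNA normalisers it was -0.16 for miR-411 and -0.07 for miR-381. For miR-411 limma-voom gave -0.03 and log2 CPM -0.06. Unscaled, miR-370 was at 0.02. Without the 2 deepest rats it was 0.07 for miR-376b-5p, -0.33 for miR-411, -0.03 for miR-369-3p, 0.31 for miR-541 and 0.0 for miR-673. With a rat left out the range was -0.33 to 0.03 for miR-376b-5p, -0.09 to 0.26 for miR-377, -0.16 to 0.18 for miR-411, -0.24 to 0.01 for miR-668 and -0.04 to 0.09 for miR-381. The 28 members outside the filter reached 10 counts in fewer than 6 rats, where counting error is a larger share of the count.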
